A study of Mus musculus with 12 samples.

Results

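The genes described here are 50 genes known for their work in germ cells, in meiosis and in the oocyte, followed through a knockdown of *Kdm6a* in mouse embryonic stem (ES) cells. They were chosen by gene symbol and fall into 4 lists: 9 early germ cell genes, 13 genes of the meiotic chromosome, 11 genes of the piRNA pathway and testis, and 17 oocyte genes. All 50 were among the 19938 genes with a named probe set on the Affymetrix Mouse Gene 1.0 ST array. Of these, 39 reached the minimum level of the test, a mean over the 12 arrays of at least 0.1 times the array mean, as did 15329 of all genes. The other 11 lay below it and were not tested. RNA came from 2 undifferentiated lines grown with LIF on mouse embryonic fibroblasts, which were depleted on gelatin before RNAi. PGK12.1 is a female line from blastocysts of a 129 female and a male born of 129 and PGK parents, and WD44 is a male line from BL6 blastocysts. Each sex is 1 line of its own strain, so sex and strain cannot be told apart. In every experiment, cells given control siRNAs without a target were set beside cells given a pool of 3 siRNAs against *Kdm6a*, with 1 array each. PGK12.1 had 4 experiments and WD44 had 2. Transfection was repeated in PGK12.1 experiments 1 and 2, at 100 pmol for 48 h and then at 400 pmol for 24 h (double RNAi). It was done once, at 100 pmol for 48 h (single RNAi), in PGK12.1 experiments 3 and 4 and throughout WD44.

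KDM6A is a histone demethylase that removes trimethylation from lysine 27 of histone H3, a mark laid down by the Polycomb repressive complex PRC2. Germline genes are kept silent in most somatic cells by promoter DNA methylation and by repressors that include the E2F6, MGA and PCGF6 complex, which recognises E-box and E2F-type sequences. ES cells are not germ cells, but they share part of the early germ cell programme and transcribe a number of germline genes at a low level.

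The knockdown was visible in every experiment. *Kdm6a* changed by −1.27, −1.50, −1.42 and −0.96 in PGK12.1 experiments 1 to 4 and by −0.94 and −0.92 in WD44, as log2 values of *Kdm6a* RNAi minus control. Its mean change passed in PGK12.1 (−1.29, SE 0.0772, limma adjusted p = 0.000292) and not in WD44 (−0.93, SE 0.109, adjusted p = 0.129), where no gene passed at all. Array medians lay between 6.15 and 6.48 on the log2 scale in PGK12.1 experiments 1 to 3, at 8.20 and 8.21 in PGK12.1 experiment 4 and between 8.03 and 8.08 in WD44, so that arrays of different experiments are not on 1 scale. Each control shared the scale of its *Kdm6a* RNAi array, and changes are therefore given within experiments. All 10 ES cell markers, *Pou5f1* and *Nanog* among them, were above the minimum level, and their summed level was 73.9 to 100.0 times the array mean over the PGK12.1 arrays and 60.9 to 63.8 over those of WD44. The 11 fibroblast markers, which could come from feeder cells, had sums of 1.94 to 2.86 over the PGK12.1 arrays and of 6.47 to 7.46 over those of WD44. *Acta2* and *Tagln* had the highest mean levels of the 11 (1.18 and 0.928). Their ranks over all arrays ran from 41.6 to 93.1% and from 44.9 to 89.7%. Those of *Col1a1* and *Col1a2* ran from 55.6 to 64.1% and from 49.1 to 60.0%, and those of *Dcn* from 14.7 to 51.5%. Whether the lines differed in feeder cells was not tested.

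After *Kdm6a* RNAi in PGK12.1, 4 of the 39 tested genes rose and 3 fell. *Nanos1*, *Dnd1*, *Tex14* and *Sohlh2* rose by 1.17- to 1.34-fold, and *Zp3*, *Khdc3* and *Nlrp9b* fell by 1.24- to 1.52-fold. Over all 15329 genes tested, 3.71% rose and 2.10% fell, against 10.3% and 7.69% of the 39. The median log2 change over the 39 genes was −0.005, beside 0.007 over all genes tested. All 3 genes that fell were oocyte genes, and those that rose came from the early germ cell (2), piRNA and testis (1) and oocyte (1) lists. None of the 11 tested meiotic chromosome genes passed. At an unadjusted p under 0.05 stood 14 of the 39 genes (35.9%) and 22.6% of all genes. Above their control in all 4 experiments were 8 of the 39 (20.5%, against 16.3% of all genes), and below it in all 4 were 5 (12.8%, against 10.6%). In bulk RNA, fewer cells of a kind that transcribes a gene and less RNA of that gene per cell cannot be told apart.

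**Figure D1:**
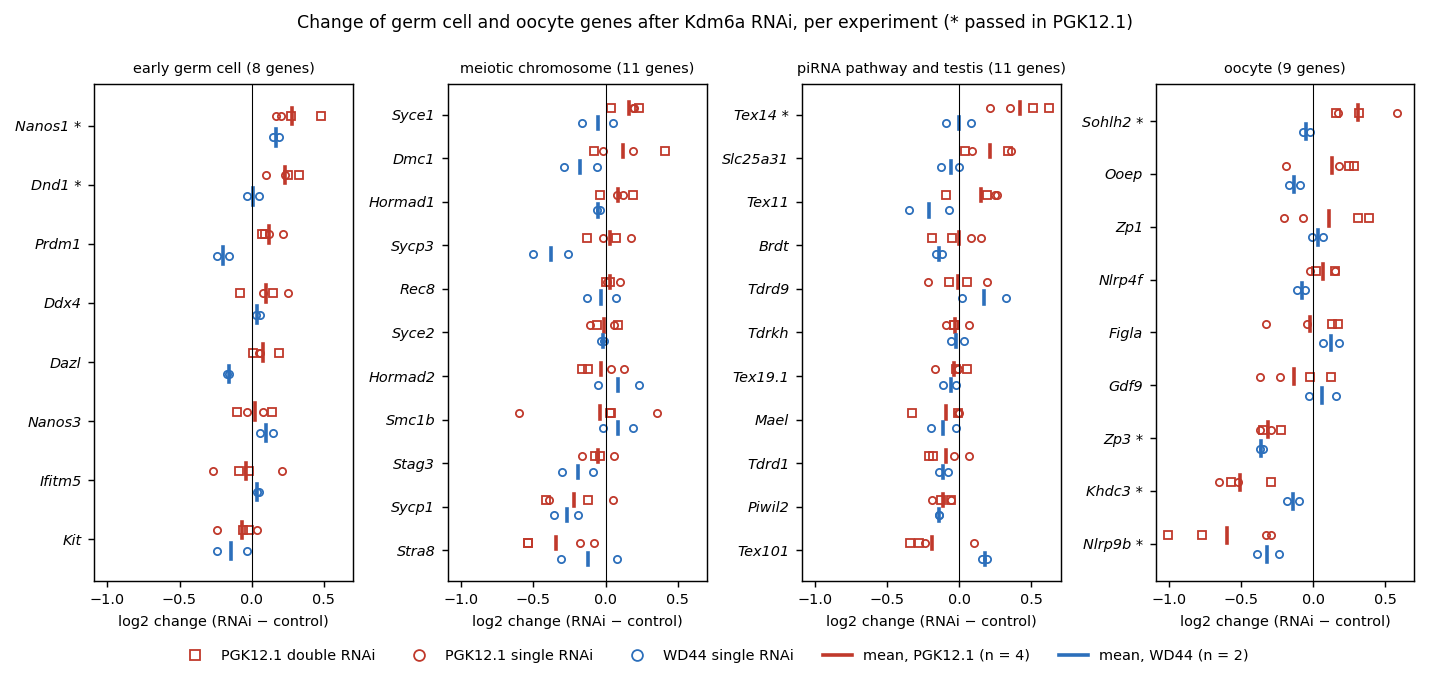
Log2 change after *Kdm6a* RNAi (RNAi minus control of the same experiment, x axis) of the 39 tested germ cell and oocyte genes, by list. Open squares are PGK12.1 double RNAi, open red circles PGK12.1 single RNAi and open blue circles WD44 experiments, and bars are the means of 4 and 2 experiments. The 7 genes with an asterisk passed in PGK12.1, and all 4 PGK12.1 experiments of each lie on 1 side of 0.

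Of the early germ cell genes, 2 of 8 tested rose in PGK12.1 and none fell, with a median change of 0.089. Both encode RNA-binding proteins that control messenger RNAs in germ cells. *Nanos1*, a zinc-finger repressor of translation, had levels of 0.234, 0.238, 0.261 and 0.489 times the array mean in the control arrays of PGK12.1 experiments 1 to 4 and of 0.322, 0.289, 0.294 and 0.562 after *Kdm6a* RNAi. Each RNAi array lay above its own control, and within experiments 1 to 3 the controls and the RNAi arrays did not overlap. The mean change was 0.28 (SE 0.0556, 1.21-fold, limma adjusted p = 0.020, 4 of 4 experiments). In WD44 the controls were at 0.420 and 0.407 and the RNAi arrays at 0.486 and 0.456, a change of 0.17 (SE 0.0786, adjusted p = 0.325). The call was lost without PGK12.1 experiment 1 (adjusted p = 0.0535) or 2 (0.0706). *Nanos1* lies on chromosome 19, and its promoter is shown because it is one of the CpG-rich ones among the genes that rose, with an observed over expected CpG ratio of 0.90. These are the 180 bases before the RefSeq start (GRCm38.p6, chr19:60755807-60755986, plus strand), 5′ to 3′.
Nanos1: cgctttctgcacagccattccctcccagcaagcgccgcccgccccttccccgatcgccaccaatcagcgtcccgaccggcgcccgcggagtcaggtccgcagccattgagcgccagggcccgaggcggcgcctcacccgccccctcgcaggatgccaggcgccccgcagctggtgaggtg

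*Dnd1*, which protects messenger RNAs needed by primordial germ cells, was at 0.360, 0.349, 0.315 and 0.325 times the array mean in the PGK12.1 controls and at 0.446, 0.418, 0.370 and 0.349 after RNAi. It was higher in each pair, with the smallest step in experiment 4, where the RNAi array did not exceed the highest controls. The change was 0.23 (SE 0.0484, 1.17-fold, adjusted p = 0.0259 by limma). WD44 controls of 0.273 and 0.253 stood beside RNAi arrays of 0.271 and 0.264, a change of 0.01 (SE 0.0684). *Dnd1* no longer passed without PGK12.1 experiment 1, 2 or 3 (adjusted p = 0.0908, 0.0982 and 0.0711) or without either WD44 experiment (0.0533). It is the least steady of the 7 together with *Sohlh2*: both passed under 6 of 17 other settings.

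The remaining early germ cell genes did not pass. *Prdm1*, the transcription factor BLIMP1 that specifies primordial germ cells, was above its control in every PGK12.1 experiment, by 0.07, 0.09, 0.22 and 0.12, and below it in both WD44 experiments, by −0.16 and −0.24. *Dazl*, an RNA-binding translational regulator, had the same pattern, with 0.19, 0.01, 0.06 and 0.05 in PGK12.1 and −0.17 and −0.16 in WD44. Neither mean passed in PGK12.1 (limma adjusted p = 0.133 and 0.350). *Ddx4*, the mouse Vasa helicase, changed by 0.15, −0.08, 0.08 and 0.25 in PGK12.1. For *Nanos3*, needed for survival of primordial germ cells, *Ifitm5*, of the fragilis family, and *Kit*, the stem cell factor receptor, the mean changes in PGK12.1 were 0.02, −0.04 and −0.07, each smaller than its SD between experiments (0.11, 0.20 and 0.12). Single experiments of *Kit* gave −0.06, −0.02, −0.24 and 0.04. *Nanos2*, which acts in male germ cells, had a mean level of 0.0861 and was not tested.

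No gene of the meiotic chromosome list passed in either line, and the median change of the 11 tested was −0.005 in PGK12.1 and −0.055 in WD44. The largest change belonged to *Stra8*, the retinoic acid target that starts the meiotic programme. Its PGK12.1 controls were at 0.201, 0.199, 0.0923 and 0.0742 times the array mean and its RNAi arrays at 0.136, 0.138, 0.0817 and 0.0703. Every pair was lower after RNAi, with log2 changes of −0.54 and −0.54 under double RNAi and −0.18 and −0.08 under single RNAi, so most of the mean of −0.34 (SE 0.0894) came from the double RNAi experiments. Its limma adjusted p was 0.0583, and it passed with each array centred on its median (0.0473) and with trend and robust moderation (0.0237).

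The proteins of the synaptonemal complex did not move together. *Sycp1*, the transverse filament, changed by −0.12, −0.41, −0.39 and 0.05 in PGK12.1 and by −0.19 and −0.36 in WD44. *Sycp3*, of the lateral element, changed by −0.13, 0.07, 0.18 and −0.02 in PGK12.1 and by −0.26 and −0.50 in WD44. Its WD44 mean of −0.38 (SE 0.0854) did not pass, at an adjusted p of 0.164 that was the smallest among the 39 genes in that line, shared with *Zp3*. *Syce1*, of the central element, was above its control in all 4 PGK12.1 experiments, by 0.04, 0.23, 0.20 and 0.19 (mean 0.16, SE 0.0518, adjusted p = 0.0933), and *Syce2*, also of the central element, had a mean of −0.01 (SE 0.0476) from values of 0.09, −0.06, 0.06 and −0.11.

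The meiotic cohesin subunits *Rec8*, *Smc1b* and *Stag3* had mean changes of 0.03, −0.04 and −0.05 in PGK12.1, and for *Stag3* the experiments gave −0.04, −0.07, 0.06 and −0.16. *Smc1b* varied most of the list, from 0.36 in experiment 3 to −0.60 in experiment 4. *Dmc1*, the meiotic recombinase, changed by −0.08, 0.41, 0.19 and −0.02. *Hormad1* and *Hormad2*, proteins of the chromosome axis, had means of 0.09 and −0.03. *Hormad1* is the only listed gene with more than 1 probe set, and its 2 probe sets differed in PGK12.1 experiment 2 (0.25 and −0.32), so its mean is uncertain. *Sycp2*, the partner of *Sycp3* in the lateral element, and *Spo11*, which makes meiotic DNA breaks, lay below the minimum level at 0.0498 and 0.0483.

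*Hormad1* and *Sycp3* are shown because their promoters hold both kinds of sequence known for germline promoters. Capitals mark the E-box CACGTG and the E2F-type TCCCGC or its reverse complement GCGGGA. The stretches are from RefSeq on GRCm38.p6, both on the plus strand and ending at the base before the start, chr3:95559567-95559676 for *Hormad1* and chr10:88459427-88459586 for *Sycp3*.
Hormad1: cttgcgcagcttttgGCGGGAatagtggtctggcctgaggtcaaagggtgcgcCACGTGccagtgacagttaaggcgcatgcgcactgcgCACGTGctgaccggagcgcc
Sycp3: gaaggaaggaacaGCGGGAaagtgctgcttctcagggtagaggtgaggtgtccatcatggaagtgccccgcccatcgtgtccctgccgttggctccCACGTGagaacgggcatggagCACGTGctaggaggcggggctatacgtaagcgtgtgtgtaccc

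In the piRNA pathway and testis list, *Tex14* rose in PGK12.1 and the other 10 genes did not pass, with a list median of −0.025. TEX14 is needed for the intercellular bridges that join dividing germ cells. Its levels were 0.305, 0.339, 0.331 and 0.632 times the array mean in the PGK12.1 controls and 0.462, 0.487, 0.422 and 0.732 after RNAi. Controls and RNAi arrays did not overlap in experiments 1 to 3, while both arrays of experiment 4 were high. The log2 changes were 0.62 and 0.51 under double and 0.35 and 0.21 under single RNAi, with a mean of 0.42 (SE 0.0666, 1.34-fold, adjusted p = 0.00782 by limma), the largest rise among the 39 genes. In WD44, control levels of 0.281 and 0.251 and RNAi levels of 0.268 and 0.267 gave changes of −0.09 and 0.08. *Tex14* passed without any 1 of the 6 experiments (adjusted p = 0.0113 to 0.0421). It lies on chromosome 11, and the 180 bases before its RefSeq start (GRCm38.p6, chr11:87404885-87405064, plus strand) are shown because it alone of the 3 rising genes with a promoter window (*Tex14*, *Nanos1* and *Sohlh2*) held a motif match, the E2F-type sequence in capitals.
Tex14: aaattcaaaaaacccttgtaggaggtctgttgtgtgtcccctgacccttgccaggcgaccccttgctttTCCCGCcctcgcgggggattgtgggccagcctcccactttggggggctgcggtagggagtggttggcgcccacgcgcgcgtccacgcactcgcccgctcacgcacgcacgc

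The genes that make and use piRNAs, the small RNAs that silence transposons in germ cells, did not pass in either line. *Piwil2*, a PIWI protein that binds piRNAs, was below its control in all 6 experiments, by −0.06 to −0.19 in PGK12.1 and by −0.14 in both WD44 experiments, and its PGK12.1 mean of −0.11 (SE 0.0431) had a limma adjusted p of 0.167. *Mael*, *Tdrd1*, *Tdrd9* and *Tdrkh*, which act with PIWI proteins, had means of −0.09, −0.09, −0.01 and −0.03. Among the testis genes, *Slc25a31*, an ADP/ATP carrier of germ cells, was above its control in all 4 PGK12.1 experiments (0.34, 0.04, 0.09 and 0.36) without passing (adjusted p = 0.0829). *Tex101*, a germ cell surface protein, changed by −0.28, −0.34, −0.24 and 0.10 in PGK12.1 and by 0.16 and 0.19 in WD44. Its mean of −0.19 did not pass (adjusted p = 0.134), whereas without experiment 4 it was −0.29 (0.0242). *Tex11*, an X-linked gene of meiotic recombination, *Tex19.1*, which acts against retrotransposons, and *Brdt*, a testis bromodomain protein, had PGK12.1 means of 0.15, −0.04 and 0.00, none of which passed. The 4 values of *Tex19.1* were 0.05, −0.02, −0.17 and −0.01.

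Of the 9 oocyte genes tested, 3 fell in PGK12.1 and 1 rose, with a median of −0.018. The other 8 of 17 lay below the minimum level, with mean levels from 0.0491 to 0.0881: the zona pellucida gene *Zp2*, the transcription factor *Nobox*, the growth factor *Bmp15*, and *Nlrp4c*, *Nlrp5*, *Nlrp14*, *Oosp1* and *Padi6*. *Zp3* encodes a zona pellucida glycoprotein that sperm meet. Its levels were 0.446, 0.457, 0.477 and 1.10 times the array mean in the PGK12.1 controls and 0.345, 0.395, 0.370 and 0.901 after RNAi. In WD44 they were 1.04 and 0.983 before and 0.817 and 0.777 after RNAi. The 6 pairs gave log2 changes from −0.37 to −0.22, and in WD44 and in PGK12.1 experiments 1 to 3 the controls and the RNAi arrays did not overlap. *Zp3* fell by 1.24-fold in PGK12.1 (−0.31, SE 0.0437, limma adjusted p = 0.00559, 4 of 4 experiments). Its WD44 change of −0.36 (SE 0.0618) was of like size and did not pass (adjusted p = 0.164), and the difference between the lines was 0.05 (95% interval −0.12 to 0.22).

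*Khdc3* encodes FILIA, a member of the subcortical maternal complex of the oocyte that ES cells also make. As multiples of the array mean, PGK12.1 controls were at 0.512, 0.50, 0.481 and 0.598 and their RNAi arrays at 0.414, 0.339, 0.307 and 0.417, without overlap over all 4 experiments. It had the smallest adjusted p of the 39 genes (−0.51, SE 0.0591, 1.42-fold lower, limma adjusted p = 0.00203). In WD44 the levels were lower to begin with, at 0.259 and 0.273 in the controls and 0.245 and 0.243 after RNAi (−0.14, SE 0.0835, adjusted p = 0.444). *Nlrp9b*, of the NLR family genes transcribed in oocytes, was at 0.223, 0.268, 0.132 and 0.346 in the PGK12.1 controls and at 0.129, 0.134, 0.106 and 0.283 after RNAi. It fell most of the 39 genes (−0.60, SE 0.106, 1.52-fold lower, adjusted p = 0.0121), by −0.77 and −1.01 under double RNAi and by −0.33 and −0.29 under single RNAi. Its WD44 levels, 0.0334 to 0.0434 on all 4 arrays, were below the minimum level, and it entered the test through PGK12.1. Probe sets of the *Nlrp4* and *Nlrp9* genes may also take up signal from close family members. *Zp3*, *Khdc3* and *Nlrp9b* each passed without any 1 of the 6 experiments (adjusted p up to 0.0226, 0.0151 and 0.0460 when a PGK12.1 experiment was left out, and up to 0.0302 without 1 of WD44).

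The promoters of these 3 genes are shown because they fell. They are the stretches before the RefSeq starts on GRCm38.p6, all on the plus strand: chr5:135979905-135980104 for *Zp3*, chr9:73102218-73102397 for *Khdc3* and chr7:20007843-20008022 for *Nlrp9b*. Capitals mark the E-box of *Zp3*, whose window also held an E2F-type sequence 22 bases after the start, outside the stretch shown. The other 2 windows held neither motif. CpG observed over expected was 0.44, 0.00 and 0.18, against a median of 0.38 over all promoters.
Zp3: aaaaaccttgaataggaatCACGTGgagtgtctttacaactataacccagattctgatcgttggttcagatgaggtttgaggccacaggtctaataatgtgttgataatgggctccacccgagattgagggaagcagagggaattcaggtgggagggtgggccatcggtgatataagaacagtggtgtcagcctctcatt
Khdc3: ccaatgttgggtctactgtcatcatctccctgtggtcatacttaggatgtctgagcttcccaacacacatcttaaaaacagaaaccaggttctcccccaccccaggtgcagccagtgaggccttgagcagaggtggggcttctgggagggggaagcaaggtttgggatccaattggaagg
Nlrp9b: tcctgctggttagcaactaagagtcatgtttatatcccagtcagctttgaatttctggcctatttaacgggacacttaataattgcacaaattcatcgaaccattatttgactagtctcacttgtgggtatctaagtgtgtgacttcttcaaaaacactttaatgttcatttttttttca

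*Sohlh2*, a helix-loop-helix transcription factor of early oocytes and spermatogonia, was the oocyte gene that rose. Its PGK12.1 controls were at 0.850, 0.812, 0.749 and 0.566 times the array mean and its RNAi arrays at 0.937, 1.02, 0.845 and 0.847. The control of experiment 1 reached the lower RNAi arrays, so the groups overlapped at that point. The changes were 0.16, 0.32, 0.17 and 0.58, with a mean of 0.31 (SE 0.0675, 1.24-fold, limma adjusted p = 0.0290). In WD44 the controls were at 0.277 and 0.256 and the RNAi arrays at 0.268 and 0.255 (−0.05, SE 0.0955). The largest step was in experiment 4, without which the change was 0.22 (adjusted p = 0.0659), and *Sohlh2* was also lost without PGK12.1 experiment 2 (0.102) or either WD44 experiment (0.0616), with quantile normalization (0.0538) and with no minimum level (0.0674). The 180 bases before its RefSeq start (GRCm38.p6, chr3:55181864-55182043, plus strand) held neither motif and are shown beside those of *Tex14* and *Nanos1* for the genes that rose.
Sohlh2: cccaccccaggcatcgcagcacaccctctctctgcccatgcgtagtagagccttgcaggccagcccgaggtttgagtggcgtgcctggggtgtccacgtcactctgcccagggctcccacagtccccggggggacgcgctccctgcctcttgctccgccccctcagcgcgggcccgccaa

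**Figure D2:**
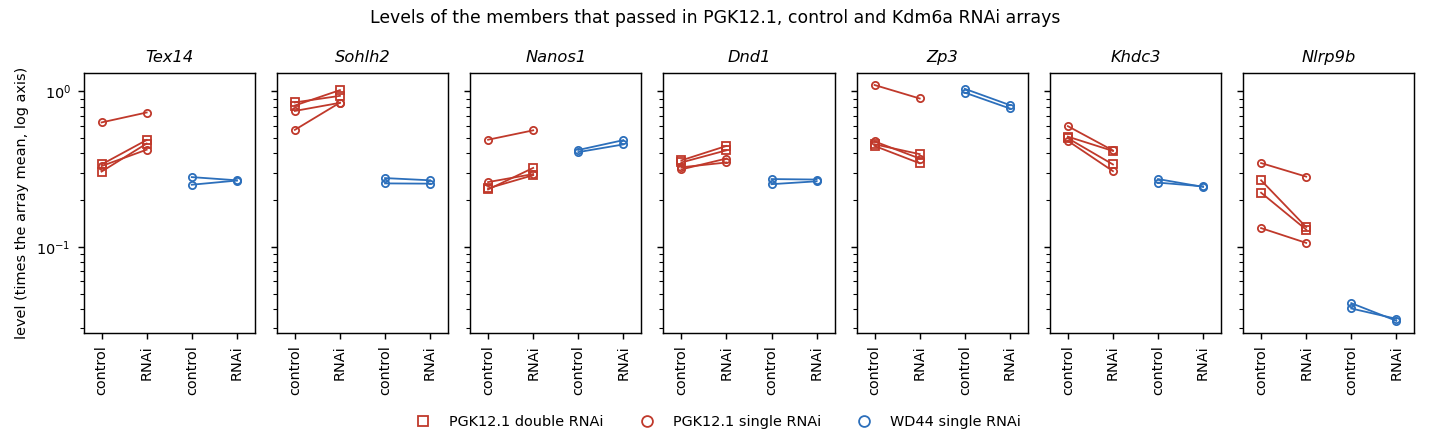
Levels (value over the array mean, log axis) of the 7 germ cell and oocyte genes that passed in PGK12.1. Each line joins the control and the *Kdm6a* RNAi array of 1 experiment. Every red line (PGK12.1) slopes up for *Tex14*, *Sohlh2*, *Nanos1* and *Dnd1* and down for *Zp3*, *Khdc3* and *Nlrp9b*, and the blue lines (WD44) of *Zp3* run as steeply as the red ones.

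Several other oocyte genes had different values under double and single RNAi within PGK12.1, though none passed the test of that difference. The median change over the 9 tested oocyte genes was 0.13 and 0.12 in double RNAi experiments 1 and 2 and −0.33 and −0.19 in single RNAi experiments 3 and 4. *Zp1*, a further zona pellucida gene, changed by 0.31 and 0.39 and then by −0.20 and −0.07. *Figla*, the transcription factor of the zona pellucida genes, and *Gdf9*, an oocyte growth factor, also lay lower in the single RNAi experiments, *Figla* at 0.13 and 0.17 against −0.33 and −0.04 and *Gdf9* at −0.02 and 0.12 against −0.37 and −0.23. *Zp1*, *Figla* and *Gdf9* lay close to the minimum level, with mean levels of 0.11, 0.127 and 0.123, so signal near background limits their values. *Zp1* was below it in the PGK12.1 controls, at a mean of 0.0973. *Ooep*, a protein of the subcortical maternal complex, changed by 0.25, 0.28, 0.18 and −0.19, and its mean of 0.13 did not pass (limma adjusted p = 0.333) except without experiment 4 (0.24, adjusted p = 0.0427). Double minus single RNAi was 0.48 for *Zp1* (SE 0.0891) and −0.58 for *Nlrp9b* (SE 0.105), both with an adjusted p of 0.487, the smallest of the 39 genes. None of the 39 and 0.00% of all genes passed this comparison by limma, and at an unadjusted p under 0.05 there were 8 of the 39 (20.5%) and 8.87% of all genes. The second round, its dose of 400 pmol and the longer time go together here and cannot be told apart. The array medians (log2) were 6.15 to 6.21 in the double RNAi experiments, 6.47 and 6.48 in experiment 3 and 8.20 and 8.21 in experiment 4, so the single RNAi experiments differed in scale among themselves. *Nlrp4f*, the last of the tested oocyte genes, had a PGK12.1 mean of 0.07 (SE 0.0468).

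In WD44 none of the 39 genes passed, as was so for all genes (0.00%). By limma, 7 of the 39 (17.9%) and 16.1% of all genes had an unadjusted p under 0.05. The changes leaned downward: 21 of 39 genes (53.8%) were below their control in both experiments against 33.0% of all genes, and 7 (17.9%) were above it in both against 31.3%. Their median was −0.065, beside −0.005 for all genes, and by list it was 0.027 for the early germ cell genes, −0.055 for the meiotic chromosome genes, −0.065 for the piRNA and testis genes and −0.085 for the oocyte genes. Without WD44 experiment 1 or 2 the early germ cell median was 0.035 or 0.01, the meiotic chromosome median −0.09 or −0.01 and the piRNA and testis median −0.02 or −0.08, and that of the oocyte genes was −0.03 with quantile normalization, −0.045 with no minimum level and −0.13 at a minimum level of 0.25. With quantile normalization of the arrays the median over the 39 was −0.03, while that of all genes was 0.022. The lean is that of the listed genes: further oocyte genes outside the lists, described below, had a WD44 median of 0.053.

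The difference between the lines was tested gene by gene, as the PGK12.1 change minus the WD44 change. No member passed, and neither did any other gene (0.00%), while 11 of the 39 (28.2%) and 21.0% of all genes had an unadjusted p under 0.05 by limma. The smallest adjusted p belonged to *Prdm1* (0.32, SE 0.0770, adjusted p = 0.0924), followed by *Sycp3* (0.40, SE 0.105, adjusted p = 0.0992), *Tex14* (0.43, SE 0.115, adjusted p = 0.103) and *Khdc3* (−0.37, SE 0.102, adjusted p = 0.105). The 7 genes that passed in PGK12.1 are thus not shown to respond differently in WD44. Their unadjusted 95% intervals for the difference lay above 0 for *Dnd1* (0.03 to 0.41), *Tex14* (0.17 to 0.69) and *Sohlh2* (0.09 to 0.61). The interval lay below 0 for *Khdc3* (−0.60 to −0.14) and held 0 for *Nanos1*, *Zp3* and *Nlrp9b*. These genes were picked by their PGK12.1 change, which is a part of the difference, so the intervals cannot decide whether the lines differ.

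**Figure D3:**
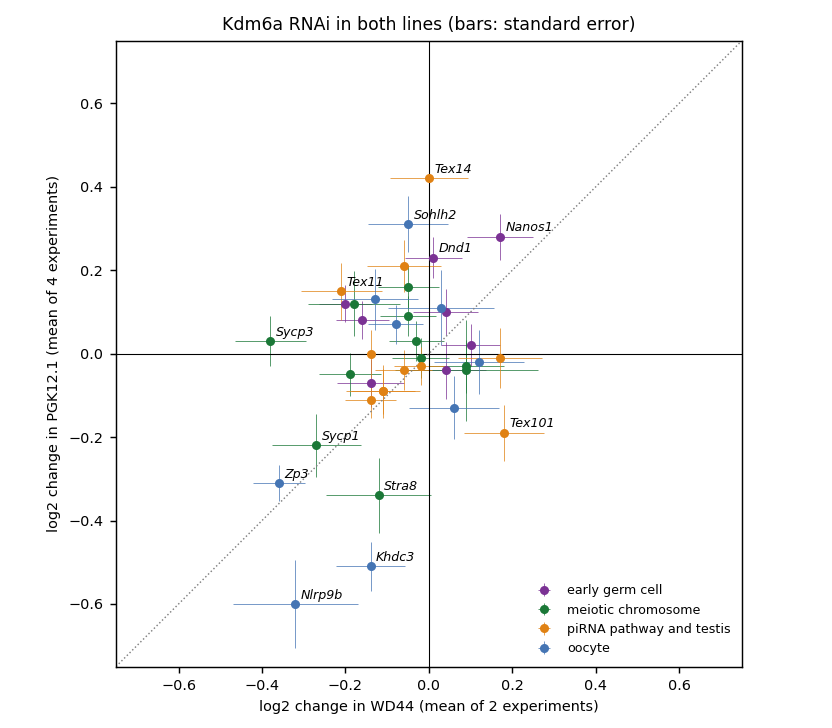
Mean log2 change after *Kdm6a* RNAi of the 39 tested genes in WD44 (x axis, 2 experiments) and PGK12.1 (y axis, 4 experiments), with standard errors of the fit as bars and equal change on the dotted line. *Zp3* lies near the dotted line at −0.36 and −0.31, *Tex14*, *Sohlh2* and *Dnd1* lie near 0 in WD44 only, and *Sycp3* lies near 0 in PGK12.1 and at −0.38 in WD44.

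In the control arrays the lines differed in the rank of part of these genes. Since arrays of different experiments are on different scales, each gene was placed by its rank among the 19938 named genes of its own control array, in percent with 100 for the highest. For 18 of the 39 genes (46.2%) all 4 PGK12.1 controls ranked above both WD44 controls, against 26.5% of all genes tested, and for 3 (7.69%) the WD44 controls ranked above, against 24.6%. Without PGK12.1 experiment 4, whose array median was near those of WD44, the counts were 23 (59.0%, against 39.3%) and 9 (23.1%, against 36.1%). The 39 include 5 genes whose mean control level was under 0.1 in 1 of the lines, *Stra8*, *Smc1b*, *Tex11* and *Nlrp9b* in WD44 and *Zp1* in PGK12.1, and which therefore entered through the line where they are high. Over the 34 genes at or above 0.1 in both lines, 15 (44.1%, against 25.8% of 14644 genes) ranked higher in PGK12.1 and 2 (5.88%, against 24.4%) in WD44. Of the meiotic chromosome genes, 6 of 11 ranked higher in PGK12.1 and none in WD44. *Hormad2* ranked from 62.9 to 71.6 over the PGK12.1 controls and at 32.6 and 34.9 over those of WD44. *Stag3* ranked from 80.2 to 88.2 against 55.2 and 57.8, and *Syce1* from 65.6 to 76.6 against 48.4 and 50.5. For these 3 genes the gap between the lines was wider than the spread within either. The ES cell marker sum was lower and the fibroblast marker sum higher in WD44, as given above, and the part of either in the ranks was not tested.

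The X-linked *Tex11*, the oocyte gene *Nlrp9b* and the cohesin gene *Smc1b*, which the minimum level admitted through PGK12.1 alone, ranked low in WD44, so their difference was built into their choice. *Tex11* ranked at 8.7 and 10.1 there and from 22.6 to 67.5 in PGK12.1, *Nlrp9b* at 8.2 and 8.6 against 39.1 to 52.3, and *Smc1b* at 21.6 and 22.2 against 57.0 to 63.4. The ranks of *Sohlh2* were 62.7 to 76.4 in the PGK12.1 controls against 46.4 and 48.6, and those of *Kit* were 85.1 to 90.3 against 71.6 and 73.3. The 3 genes that ranked higher in WD44 were *Tdrd1* (41.8 and 43.3, against 21.1 to 32.7), *Zp1* (29.2 and 30.0, against 20.7 to 28.6) and *Nlrp4f* (62.9 and 65.5, against 40.3 to 53.9). Of the 7 genes that passed after *Kdm6a* RNAi, *Dnd1*, *Tex14*, *Sohlh2* and *Khdc3* ranked higher in PGK12.1 controls, while *Nanos1* and *Zp3* overlapped between the lines. *Nlrp9b* ranked higher too, but its admission through PGK12.1 fixed that in advance. With it the count was 5 of 7 (71.4%), against 46.2% of the 39 genes and 32.5% of the 890 genes of the whole array that passed. Whether rank and response go together was not tested.

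**Figure D4:**
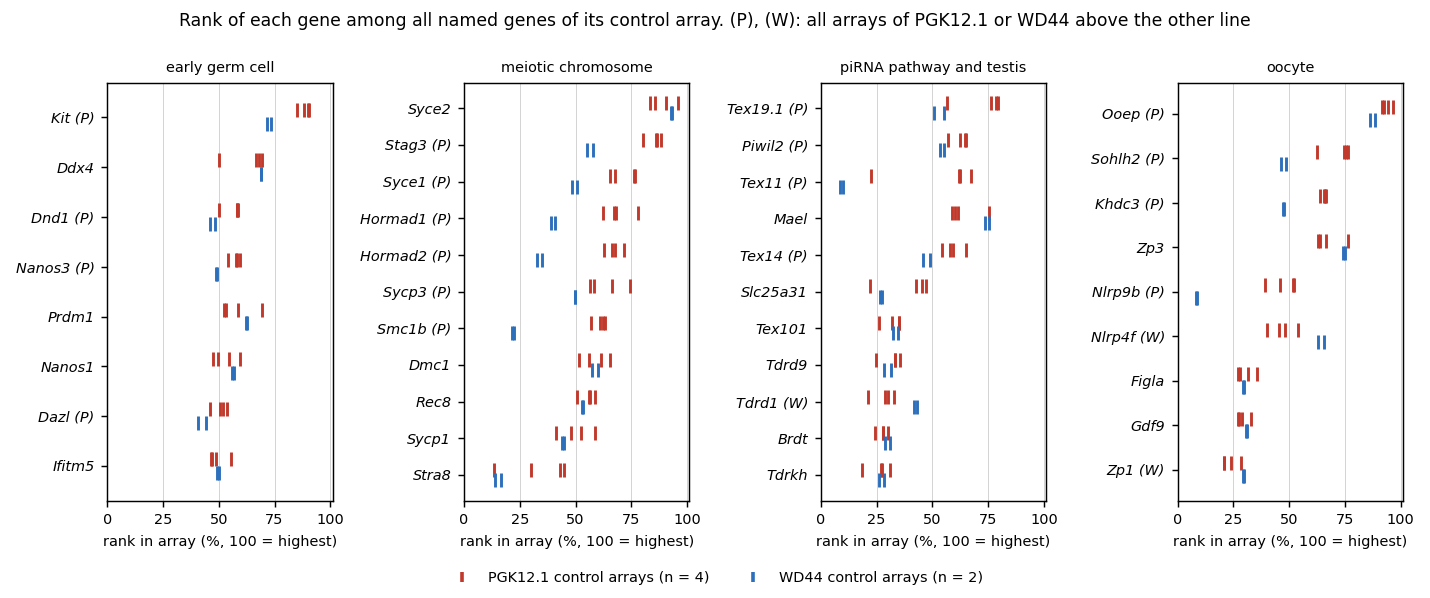
Rank in percent (x axis, 100 for the highest of 19938 named genes) of each of the 39 genes in the 4 control arrays of PGK12.1 (red) and the 2 of WD44 (blue), by list. Genes with (P) ranked higher in all PGK12.1 controls (18) and those with (W) in both WD44 controls (3), and *Hormad2*, *Hormad1* and *Stag3* show wide gaps between the lines. The gap of *Hormad1* was wide in 1 of its 2 probe sets and narrower in the other.

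The lists differed in promoter sequence. RefSeq promoter windows of 300 bases, from 250 before to 50 after the start, were found for 42 of the 50 genes (48 windows). *Dnd1*, *Gdf9*, *Nlrp14*, *Piwil2*, *Spo11*, *Tex11*, *Zp1* and *Zp2* had none in the table. The E-box CACGTG was searched, which reads alike on both strands, and TCCCGC or GCGGGA, which is the E2F-type sequence on either strand. An E-box and an E2F-type sequence can overlap by at most 1 letter and were counted separately. An E-box was held by 12 of the 42 genes (28.6%, against 8.09% of 27025 genes with a window), an E2F-type sequence by 17 (40.5%, against 22.0%) and both by 9 (21.4%, against 2.65%). The E-box was most common in the piRNA and testis genes (55.6%) and the meiotic chromosome genes (41.7%) and least in the oocyte genes (7.69%). The E2F-type sequence was held by 66.7% of the meiotic chromosome genes and 15.4% of the oocyte genes. CpG observed over expected had a median of 0.71 and 0.73 in the meiotic and the piRNA and testis genes, 0.65 in the early germ cell genes and 0.31 in the oocyte genes. A match only describes letters in this window.

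**Figure D5:**
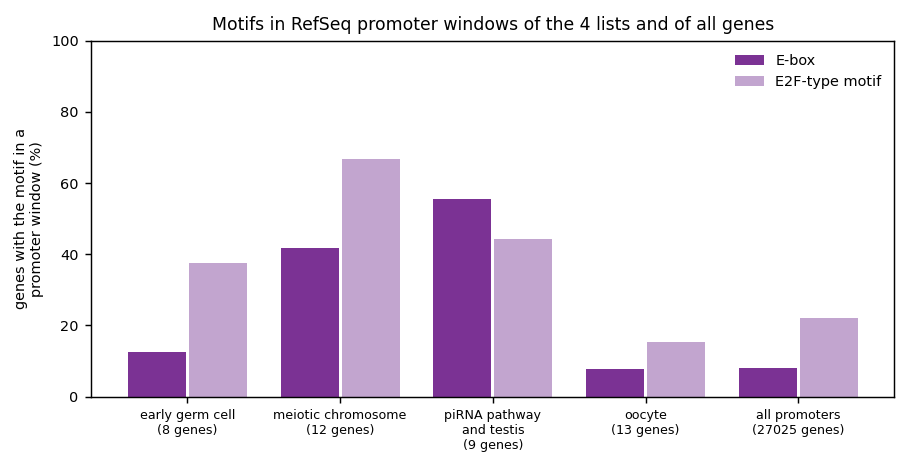
Share of genes (y axis, percent) with an E-box (dark bars) or an E2F-type sequence (light bars) in a RefSeq promoter window, for the 4 lists and for all genes with a window. The dark bars reach 41.7% and 55.6% in the meiotic chromosome and piRNA and testis lists and 8.09% over all genes.

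Related genes outside the 50 were counted by list, beside the 3.71% of all genes that rose and the 2.10% that fell in PGK12.1. Of 17 further genes used as early germ cell markers, none rose in PGK12.1 and 2 fell by limma: *Dppa3* (Stella, −0.31, SE 0.0676, adjusted p = 0.0281) and *Alpl*, the alkaline phosphatase of ES and primordial germ cells (−0.27, SE 0.0405, adjusted p = 0.00690). None of 16 further meiotic genes and none of 14 further piRNA and testis genes passed. Of 10 further oocyte genes tested, 1 fell, *Tle6* (−0.28, SE 0.0459, adjusted p = 0.00941), which belongs with *Khdc3*, *Ooep*, *Nlrp5* and *Padi6* to the subcortical maternal complex. Of that complex, then, *Khdc3* and *Tle6* fell, *Ooep* did not pass, and *Nlrp5* and *Padi6* were not tested. Of 24 repressors of germline genes, 1 rose, *Yaf2*, a subunit of variant Polycomb complexes (0.29, SE 0.0501, adjusted p = 0.0104). *E2f6*, *Mga*, *Max*, *L3mbtl2* and *Pcgf6*, whose products bind the motifs above or the proteins that do, had PGK12.1 means between −0.03 and 0.05. Median WD44 changes of the further genes were −0.045 (early germ cell), −0.09 (meiotic), 0.012 (piRNA and testis) and 0.053 (oocyte). Of the 10 further oocyte genes tested, 5 were above their control in both WD44 experiments and 1 was below it in both. The downward lean of the listed genes in WD44 was therefore not shared by the further oocyte genes. Of 10 ES cell markers, 7 were below in both and 1 above, and of 8 tested fibroblast markers 1 and 7.

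Markers of another cell state moved in the same arrays. Of 5 tested genes that mark cells resembling the 2-cell embryo, which arise in ES cultures, 4 rose in PGK12.1: *Gm5662* (0.51, SE 0.102, limma adjusted p = 0.0201), *Zfp352* (0.37, SE 0.0859, adjusted p = 0.0350), *Tcstv3* (0.35, SE 0.0485, adjusted p = 0.00493) and *Usp17lc* (0.33, SE 0.0595, adjusted p = 0.0123). The summed level of the 7 measured markers changed by 0.21, 0.18, 0.16 and 0.48 in PGK12.1 experiments 1 to 4 and by −0.01 and 0.03 in WD44. It ranged from 3.49 to 5.84 in PGK12.1 controls and from 4.14 to 6.55 after RNAi, and from 2.09 to 2.20 over the WD44 arrays. *Eif1a* had the highest mean level of the 7 (1.98 times the array mean) and so weighed most in the sum, but changed by only 0.03 to 0.07 in PGK12.1. *Gm5662*, with a mean level of 0.979, changed by 0.47, 0.27, 0.31 and 1.00 there. In WD44, *Gm5662* changed by 0.34 and 0.40 and *Usp17lc* by 0.17 and 0.45. *Zfp352* changed there by −0.23 and −0.03 and *Tcstv3* by 0.04 and 0.13, and none of these 4 passed. The rank of *Gm5662* ran from 1.4 to 92.3 over all arrays, so part of its values lay near background. The step of the sum was largest in experiment 4, as was that of *Sohlh2*. Of the other genes that rose, *Tex14* and *Dnd1* had their smallest step in experiment 4, and *Nanos1* had its largest in experiment 1. Of the 10 ES cell markers, 1 passed in PGK12.1, *Utf1*, which fell (−0.22, SE 0.0467, limma adjusted p = 0.0248). Its experiments gave −0.28, −0.24, −0.28 and −0.09 there and −0.08 in both of WD44. The ES cell marker sum changed by −0.03 to −0.01 in PGK12.1. No marker of the fibroblast or the somatic gonad lists passed in PGK12.1, and the fibroblast sum changed by −0.13 to 0.07 there and by 0.08 and 0.21 in WD44. The part of these cells in the changes of the germ cell and oocyte genes was not tested.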

How the data were processed

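RNA of 12 Affymetrix Mouse Gene 1.0 ST arrays was analysed. Per the labels and the study's methods, the log2 values the authors deposited are RMA values from Affymetrix Expression Console. The sources used here give neither versions nor the sets of arrays that were normalized jointly. No normalization was added. The number of arrays limits the precision.

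Gene names came from the platform annotation, which lists 1 symbol for 21789 of 35556 probe sets, several for 1621 (left unnamed) and none for 12146. For 999 genes with more than 1 probe set, log2 values were averaged. The level is the linear value over the array mean, and genes with a mean level of at least 0.1 were tested (15329, with 4609 below).

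Changes were tested with limma 3.58.1 (R 4.3.3; lmFit, eBayes; 4 residual and 5.67 prior degrees of freedom) with the experiment as a block, 1 *Kdm6a* RNAi effect per line and Benjamini-Hochberg adjustment over all genes tested, at 0.05. Beside the effect in each line, the difference of the lines and that of double and single RNAi were tested. Percent ranks are over 19938 genes. Fits were tested on simulated data. Controls and RNAi arrays were paired by the experiment number of the labels and the paired tests of the methods. Deviations from the group means correlated within PGK12.1 experiments at 0.828 to 0.972, with the scale of the arrays in them, and at 0.265 in WD44. The highest value between PGK12.1 experiments was 0.812, close to the lowest within them, so these correlations alone do not settle the pairing. The study calls the PGK12.1 experiments individual and, in a legend on the arrays of both lines, speaks of independent experiments. It does not describe the cultures of the WD44 pair further, so their spread may be technical, and their p-values mostly use the PGK12.1 spread.

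The members and all lists were chosen with earlier results of these data known. Every member may be named, with values per experiment for those that passed, the 3 largest mean changes and the 2 highest levels per list. *Prdm1*, *Dazl*, *Zp1*, *Figla* and others shown per experiment beyond that rule were chosen after their values were seen. Alternatives were the minimum level, probe sets tested singly, median and quantile scaling, trend and robust moderation, no block, separate fits per line, the methods' paired test, double or single RNAi alone, and leaving out each experiment. Ranks without PGK12.1 experiment 4, and over genes at or above 0.1 in both lines, were added after seeing the data. Promoters are RefSeq windows of GRCm38.p6. Figures were drawn with matplotlib 3.10.9.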

Additional observations from a re-analysis of the deposited data

Results flagged for a closer look

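A rule for opposite directions in the lines picked out 3 of the 39 tested genes, with every PGK12.1 experiment above its control and both WD44 experiments below. Over all genes tested, 16.3% were above in all 4 PGK12.1 experiments and 33.0% below in both WD44 experiments. The share with both was not counted. Some steps were small, such as 0.01 for *Dazl* in PGK12.1 experiment 2 and −0.02 for *Sohlh2* in WD44 experiment 2. The PGK12.1 change minus the WD44 change was 0.24 for *Dazl* (limma adjusted p = 0.130), 0.32 for *Prdm1* (adjusted p = 0.0924) and 0.35 for *Sohlh2* (adjusted p = 0.139), so the difference did not pass for any of them. One value stood far from the others of its group: *Mael*, a piRNA pathway gene, changed by −0.33 in PGK12.1 experiment 2 and by −0.01 to 0.00 in the other 3 experiments, a gap of 0.97 of the whole range. Chance alone puts about 1 in 20 groups past the limit used to pick out such gaps.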

How the results depend on the processing

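The 7 genes that passed in PGK12.1 kept their direction under every setting tried. The number of tested genes of the lists that passed there was 4 with no minimum level, 2 with the double RNAi experiments alone, 1 with the single RNAi experiments alone, and 4 to 8 when 1 experiment was left out (4 without PGK12.1 experiment 2, and 8 without experiment 4, where *Sohlh2* no longer passed, at an adjusted p of 0.0659 by limma, and *Tex101* and *Ooep* did, at 0.0242 and 0.0427). It was 6 with quantile normalization, without *Sohlh2*, and 5 with the lines fitted separately, without *Dnd1* and *Sohlh2*. It was 0 without the replicate block (no paired analysis) and 0 with the methods' paired t-test after Benjamini-Hochberg adjustment, which before adjustment had 9 of the 39 genes, 5 higher and 4 lower, and 2445 of all genes past its threshold. For the difference between the lines, 1 gene of the lists passed at a minimum level of 0.25 (*Prdm1*, adjusted p = 0.0444 by limma), as did 270 of all 10578 genes then tested, and 2 of the lists with trend and robust moderation (*Sycp3*, 0.0427, and *Tex14*, 0.0434), as did 553 of 15329. *Syce1* passed in PGK12.1 at a minimum level of 0.25 (0.0477). The WD44 median of −0.065 was −0.051 with no minimum level, −0.045 with each array centred on its median and −0.03 with quantile normalization. Over all genes in PGK12.1, 568 rose and 322 fell. These counts were 270 and 182 with no minimum level, 931 and 440 at 0.25, 1102 and 545 with trend and robust moderation, 332 and 205 with the lines fitted separately or without either WD44 experiment, 117 and 65 with double RNAi alone, 43 and 59 with single RNAi alone, 0 without the block or by the paired t-test, and from 198 and 152 to 396 and 211 without 1 PGK12.1 experiment. The counts of genes that passed in WD44 and for double minus single RNAi stayed at 0 among the 39 under every setting run. Of the single values per gene, 1783 were alike, 39 moved by more than the spread between experiments, 42 were no longer past the threshold and 8 newly so. Signal near background kept 11 listed genes out of the test. It also limits tested genes close above the minimum level, such as *Stra8* (mean level 0.104), *Tdrkh* (0.107) and *Nlrp9b* (0.148). WD44 is limited by its 2 experiments.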
